A study of Caenorhabditis elegans with 24 samples.

Results

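Animals detoxify foreign and self-made lipophilic compounds in steps. Cytochrome P450 enzymes, encoded in Caenorhabditis elegans by cyp- genes, insert oxygen into a substrate. UDP-glucuronosyltransferases (UGTs, ugt- genes) and glutathione S-transferases (GSTs, gst- genes) then join a sugar or glutathione to it, and transporters carry the conjugate out of the cell. In worms many of these genes are expressed in the intestine, and some P450s serve other tasks, such as making eggshell lipids or signalling lipids.

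The genes described here are all those whose symbol in the deposited tables begins with cyp-, ugt- or gst-. There were 184 of 46926 genes: 74 cyp-, 66 ugt- and 44 gst- genes, all protein-coding. The choice used symbols only, so genes of the same enzyme classes under other symbols, such as the P450 gene daf-9, are not members.

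Young adult worms, raised at 20 °C or at 26 °C, were taken whole for RNA, in 24 libraries of 8 groups with 3 libraries each. WT carried 3xFLAG::GFP::WAGO-4, a tagged form of a germline Argonaute protein. 3×FG carried the same tag together with mutated phenylalanine-glycine repeats in the germ granule helicases GLH-1, GLH-2 and GLH-4, wago-4(Y611E) carried the tag on a WAGO-4 protein altered in small RNA binding, and wago-4(ko) was a knockout for which the labels name no tag. The value used for each gene was the authors' mean normalized count, which pools the 4 genotypes within a temperature. The report therefore compares 26 °C with 20 °C over all genotypes together, and the genotypes were not compared.

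Each temperature gave 1 mean per gene and no value per library. No test was run, since the means carry no spread and the authors' own comparisons, which hold standard errors and p-values, were not used. A difference may rest on 1 genotype or a few libraries. The means summed to 30474128 at 20 °C and 28460281 at 26 °C over all genes, and no depth of a library is known here. RNA came from whole worms, so fewer cells of a type and less RNA per cell cannot be told apart. Of the genes that mark adult tissues, the yolk genes vit-1 to vit-6, the intestinal factor elt-2, the muscle genes myo-3 and unc-54, the cuticle gene col-19 and the germline genes glh-1 and pgl-1 were all detected at both temperatures. Sperm RNA differed between the temperatures: 28 of 29 major sperm protein (msp-) genes with a mean of at least 10 were at least 2-fold lower at 26 °C, with a median centred log2 ratio of -1.80. The germline genes glh-1 and pgl-1 had ratios of -0.32 and -0.59, and elt-2 had 0.19. The 6 vit- genes lay between -0.31 and 0.23, with a median of -0.07. The part of these differences in the results below was not tested.

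The members together took a small share of the normalized counts, and that share was larger at 26 °C. They held 0.136% of all normalized counts at 20 °C and 0.195% at 26 °C, a ratio of 1.44 between the shares. The cyp- genes went from 0.0400% to 0.0571%, the ugt- genes from 0.0633% to 0.0935% and the gst- genes from 0.0327% to 0.0447%. A share within a temperature does not depend on how the temperatures were scaled. It does depend on the other genes. With each temperature scaled to its own sum, the median log2 ratio of all genes with a mean of at least 10 was 0.18. That of the members with such a mean was 0.75. The ugt- genes held the largest share of the 3 families at both temperatures. These shares are not divided by transcript length, so they do not rank the families by number of transcripts. The median length of the longest transcript was 1703.5 bases for ugt-, 1631 for cyp- and 736.5 for gst- genes.

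The normalized counts were spread unevenly over the members, most so in the gst- family. Levels of different genes are given per kilobase (kb) of the longest annotated transcript. The most abundant member was gst-1 (chromosome III, 9059331 to 9060181 in WBcel235), with 4429 normalized counts per kb at 20 °C against 4189 at 26 °C. Next came gst-7 (chromosome II), with 2791 and 2347 per kb. In the gst- family, gst-1, gst-7 and gst-27 held 63.8% of the family's normalized counts at 20 °C, and at 26 °C the 3 highest genes, gst-1, gst-7 and gst-36, held 47.1%.

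Among the P450 genes the cyp-31A genes stood first. cyp-31A2 and cyp-31A3 encode very similar P450s needed for the lipid layer of the eggshell, and reads from such copies may have been divided between them by the counting, so the value of each is uncertain. cyp-31A2 had 1437 per kb at 20 °C and 1441 at 26 °C, cyp-31A3 had 1062 and 1029, and cyp-31A5 had 930.0 and 878.8. The 3 cyp-31A genes held 42.3% of the normalized counts of the cyp- family at 20 °C and 31.1% at 26 °C. cyp-44A1, a P450 of the mitochondrial type, followed with 530.1 and 569.3 per kb, and cyp-33A1 had 420.2 and 716.6.

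The ugt- family was the most even, with 46.3% of its normalized counts in its 5 highest genes at 20 °C, against 54.5% for cyp- and 77.1% for gst-. ugt-22 led it with 1183 per kb at 20 °C and 1541 at 26 °C. ugt-62 had 1080 and 817.3, ugt-64 had 1061 and 988.5, ugt-58 had 847.4 and 1135, and ugt-47 had 581.7 and 845.8. At the other end, 3 members were listed at 0 at both temperatures, namely cyp-35B3, gst-17 and gst-37.

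**Figure D1:**
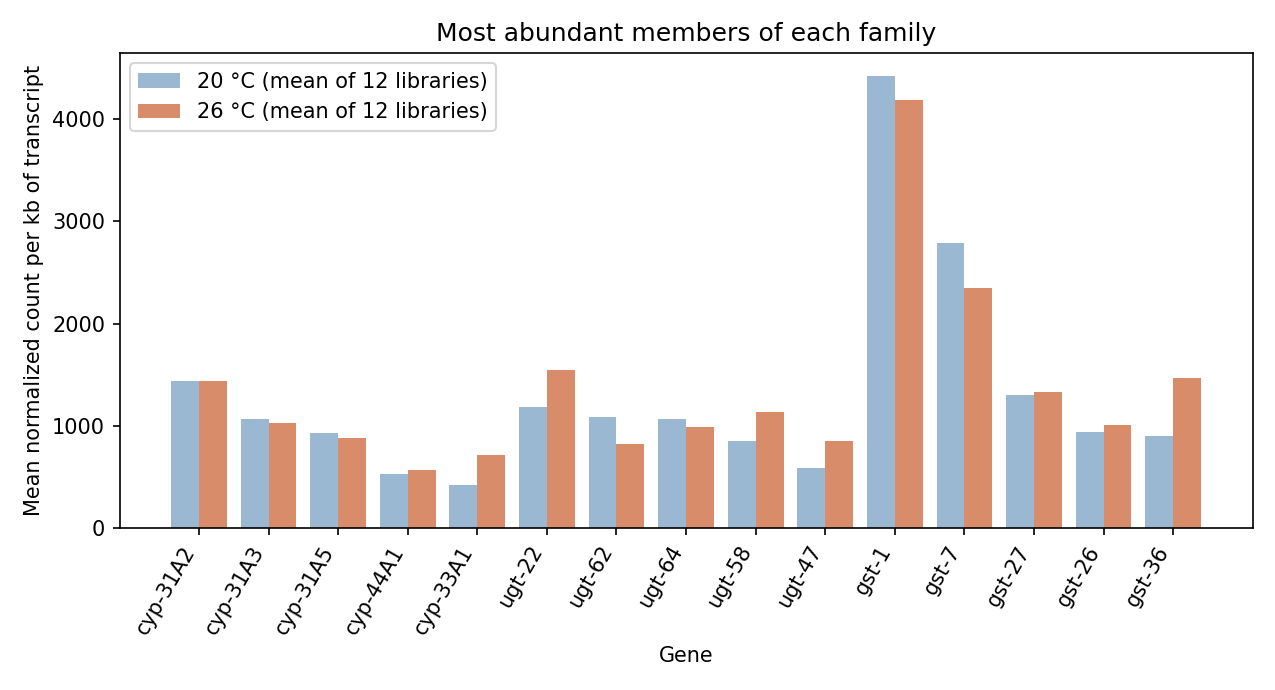
Mean normalized count per kb of transcript for the most abundant members of each family, at 20 °C and 26 °C. Each bar is the authors' mean over the libraries of that temperature, with no error bar because no value per library was held; gst-1, at 4429 and 4189, stands above every other gene shown.

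The 2 temperatures were then compared gene by gene. The ratio was taken as log2 of the 26 °C mean plus 1 over the 20 °C mean plus 1, centred on the median of all genes with a mean of at least 10 over both temperatures, and it understates the difference of low genes. A gene is called higher or lower at a ratio of at least 1 in size, which is 2-fold. Of the 184 members, 134 had a mean of at least 10, and the other 50 were left out of the counts.

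At 26 °C, 33 of the 134 members were at least 2-fold higher and 4 at least 2-fold lower. These are 24.6% and 2.99%. Of all 14175 genes with such a mean, 10.9% were higher and 5.29% lower. The median ratio of the members was 0.57, against 0 for all genes by the centring. Both medians differed with the level of the genes, as given by band below. A ratio above 0 was seen in 111 members, or 82.8%, and in 7087 of all genes. Scaling each temperature to its own sum in place of the median gave 41 members higher and 2 lower, and 2073 genes higher and 514 lower of all genes, where the median gave 1547 and 750. That scaling moved the share of higher among all calls from 67.3% to 80.1%.

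**Figure D2:**
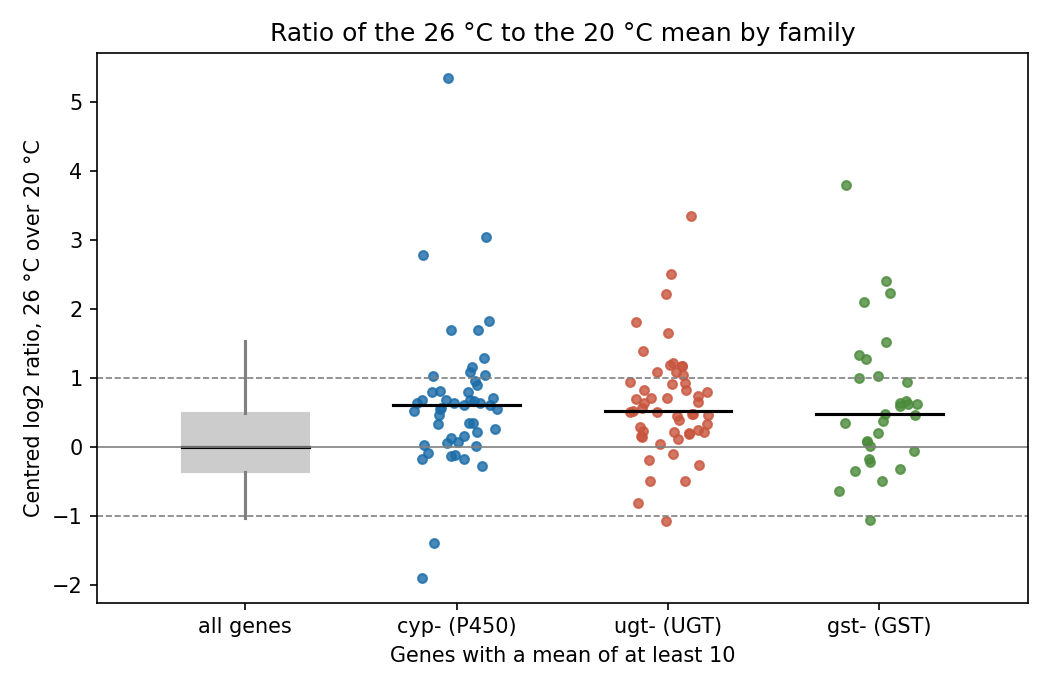
Centred log2 ratio of the 26 °C mean to the 20 °C mean for the members with a mean of at least 10, by family. Each dot is a gene and each black line the family median (0.61 for cyp-, 0.52 for ugt- and 0.48 for gst-); the grey box spans the 25th to 75th percentile of all genes and its lines the 5th to 95th percentile, and the dashed lines mark 2-fold.

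Each family lay above the median of all genes. In the cyp- family 11 of 50 genes were higher and 2 lower, with a median of 0.61. In the ugt- family 13 of 53 were higher and 1 lower, with a median of 0.52. In the gst- family 9 of 31 were higher and 1 lower, with a median of 0.48. Of the genes with a mean of at least 10 in each family, 84%, 86.8% and 74.2% had a ratio above 0.

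Low genes had wider ratios throughout the transcriptome, and their ratios also lay higher. The counts were therefore also read within bands of the mean, which were chosen after the data were seen. The median ratio of all genes was 0.32 between 10 and 100, 0.09 between 100 and 1000 and -0.19 at 1000 and over. That of the members was 0.48, 0.64 and -0.10 in the same bands. Of all genes, 8.73%, 5.12% and 1.56% were lower in these bands, and of the members 6.38%, 1.33% and 0%. Between 10 and 100, 15 of 47 members were higher, or 31.9%, against 22.3% of all genes in the band. Of these 15, 5 had a mean under 10 at 20 °C and so passed the minimum through the 26 °C mean. Between 100 and 1000, 18 of 75 members were higher, or 24%, against 7.41%. At 1000 and over, 0 of 12 members were higher, against 1.70% of all genes. Of the 4 members called lower, 3 had a mean under 10 at 26 °C and so passed the minimum through the 20 °C mean.

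**Figure D3:**
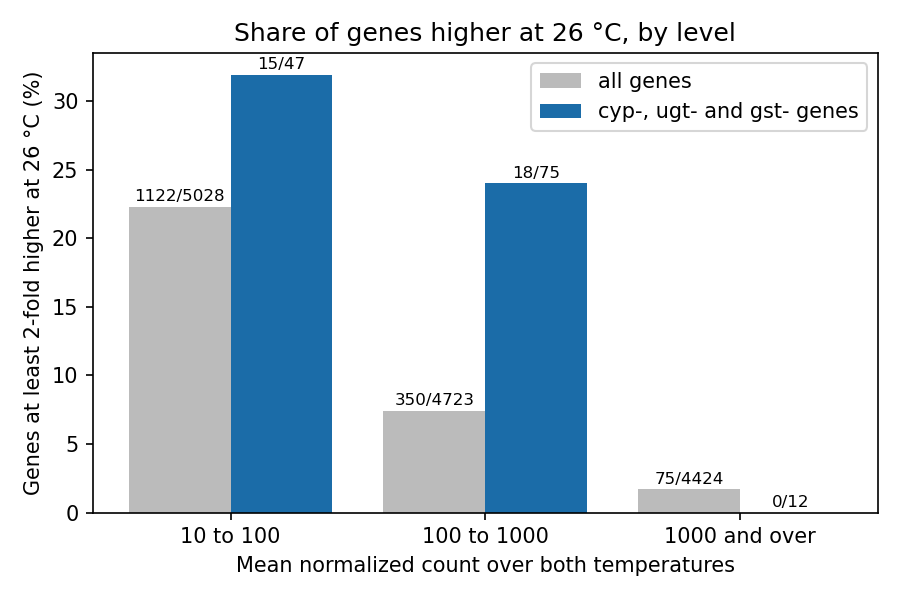
Percent of genes at least 2-fold higher at 26 °C, in 3 bands of the mean normalized count over both temperatures, for all genes and for the cyp-, ugt- and gst- genes. The counts above the bars are genes higher over genes in the band; the members exceed all genes most in the middle band, at 24% against 7.41%.

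Among the P450 genes, the ratio was highest for cyp-37B1 (chromosome V, 16278116 to 16280616). Its mean normalized count was 1.64 at 20 °C and 113 at 26 °C, a ratio of 5.35 on the log2 scale. The cyp-37B1 transcript was thus near the floor of the measurement at 20 °C. With a mean so low at 20 °C the size of the ratio depends on the pseudocount, and it was 4.08 with a pseudocount of 5 and 5.95 with 0.1. cyp-37A1, the other gene of that number, went from 378 to 833 with a ratio of 1.05.

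cyp-35B1 had a mean of 6.07 at 20 °C and 61.0 at 26 °C, a ratio of 3.05, and cyp-32B1 had 10.8 and 85.8, a ratio of 2.79. cyp-35B1 is known as a target of the FOXO factor DAF-16. The cyp-35 genes are known for their strong induction by foreign compounds. The 4 cyp-35A genes with a mean of at least 10 all lay above 0, with a median of 0.74. Of these, cyp-35A3 had means of 40.4 and 156 and a ratio of 1.83, and cyp-35A2, which is also known for a role in fat storage, had 499 and 825 and a ratio of 0.64. cyp-35C1 and cyp-35D1 had ratios of 0.22 and -0.11.

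The 3 cyp-14A genes with a mean of at least 10 all lay above 0: cyp-14A5 had means of 160 and 382 and a ratio of 1.16, cyp-14A2 had 81.8 and 180 and a ratio of 1.04, and cyp-14A1 had 29 and 43.3 and a ratio of 0.48. The cyp-13A genes did not share a direction. cyp-13A8 and cyp-13A2 had ratios of 1.71 and 1.09, and cyp-13A4 had means of 21.6 and 5.48 with a ratio of -1.89, the lowest of all members with a mean of at least 10. The only other P450 gene called lower was cyp-33C2, with means of 15.2 and 5.59 and a ratio of -1.38. Of the 7 cyp-33C genes measured, 6 had a ratio above 0 and 1 was called higher, cyp-33C5 with 1.30.

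The 3 cyp-31A genes lay between -0.17 and -0.08. cyp-44A1 had a ratio of 0.02. cyp-29A3 and cyp-33E2, which make signalling lipids from polyunsaturated fatty acids, had ratios of 0.35 (means of 185 and 250) and 0.55 (122 and 190). Without the cyp-31A genes, the cyp- family went from 0.0231% to 0.0393% of all normalized counts. The ratio between these shares was 1.70, against 1.42 for the whole family. Leaving out these 3 abundant genes, all with ratios below 0, was not planned.

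**Figure D4:**
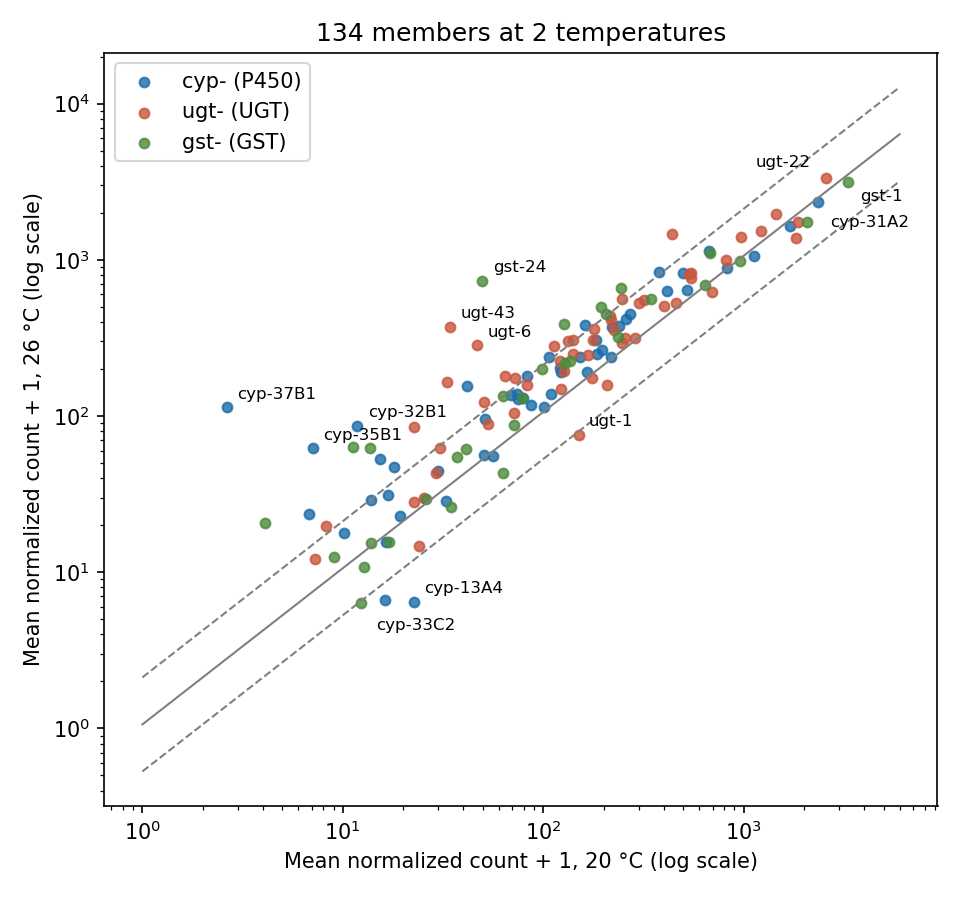
Mean normalized count plus 1 at 20 °C (horizontal, log scale) and 26 °C (vertical, log scale) for the 134 members with a mean of at least 10. The solid line is the median ratio of all genes and the dashed lines 2-fold above and below it; cyp-37B1, gst-24 and ugt-43 stand farthest above the solid line.

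Among the UGT genes, ugt-43 and its neighbour ugt-44 were both higher at 26 °C. ugt-43 (chromosome IV, 10464588 to 10467297) had means of 33.4 and 371 and a ratio of 3.35, and ugt-44 had 437 and 1459 and a ratio of 1.65. ugt-44 had the highest mean at 26 °C of the UGT genes called higher. ugt-6 had means of 45.8 and 284 with a ratio of 2.52, and ugt-52 had 32.3 and 164 with a ratio of 2.23. The other 9 UGT genes called higher had ratios between 1.05 (ugt-39) and 1.81 (ugt-14).

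ugt-1 was the only UGT gene called lower, with means of 149 and 74.9 and a ratio of -1.07. Without the centring its ratio was -0.99, and with each temperature scaled to its own sum it was -0.89, both under 2-fold. ugt-37 had means of 23 and 13.6 and a ratio of -0.80, and ugt-62, among the most abundant UGT genes, had a ratio of -0.49.

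Among the GST genes, gst-24 (chromosome II, 13610443 to 13611366) had the highest ratio, 3.81, with means of 48.7 at 20 °C and 736 at 26 °C. In the warmer worms it was among the 5 GST genes with the highest means. gst-4, whose promoter is widely used as a reporter of oxidative stress and of the factor SKN-1, had means of 244 and 660 and a ratio of 1.35. gst-10, which conjugates the lipid peroxidation product 4-hydroxynonenal, had 194 and 500 and a ratio of 1.28. gst-20 had 127 and 390 with a ratio of 1.53, and gst-5 had 204 and 447 with a ratio of 1.04.

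The remaining GST genes called higher had means at 20 °C between 3.11 and 61.7, a range that also holds gst-24 with 48.7. gst-9 had a ratio of 2.41 (means of 10.2 and 62.4) and gst-40 had 2.23 (3.11 and 19.5). gst-29 had 2.11 (12.7 and 61.6) and gst-38 had 1.00 (61.7 and 132). The GST genes with the highest levels per kb at 20 °C, gst-1, gst-7, gst-26 and gst-27, lay between -0.33 and 0.02. gst-36 and gst-42, an enzyme of tyrosine breakdown, had ratios of 0.63 and 0.61. gst-25 was the only GST gene called lower, with means of 11.4 and 5.35 and a ratio of -1.05. That call ended without the centring (-0.96), with each temperature scaled to its own sum (-0.88) and with a pseudocount of 5 (-0.74). Its whole span, 1990 bases, overlaps the more abundant gene spe-15 on the other strand. spe-15 had means of 1822 and 1263 and a ratio of -0.61, the same direction as gst-25. Whether the counting used strand is not given in the sources used here. In all, 31 of the 184 members overlap another protein-coding gene. Among those called higher, gst-9 overlaps the sperm gene msp-33 on the other strand by 384 bases, where msp-33 had a ratio of -2.14, and gst-4 overlaps dhs-12 on its own strand by 645 bases, where dhs-12 had a ratio of -0.43. Shorter overlaps with a gene on the other strand included those of gst-40 with col-103 (7 bases, ratio 0.30, means of 11336 and 14846), of cyp-37B1 with F28G4.2 (69 bases, ratio 0.39) and of gst-5 with nos-1 (12 bases, ratio -0.05). Without gst-1 and gst-7, the gst- family went from 0.0150% to 0.0276% of all normalized counts. The ratio between these shares was 1.84, against 1.37 for the whole family. Leaving out these abundant genes, with ratios of -0.16 and -0.33, was not planned.

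Of the 33 members called higher, 8 were within 0.1 of the threshold, and 6 members lay within 0.1 below it. Just inside it on the higher side lay gst-38 at 1.00 and gst-5 at 1.04, and just outside it cyp-13A10 at 0.97 and gst-6 at 0.95. On the lower side gst-25 at -1.05 and ugt-1 at -1.07 lay just inside, and ugt-37 at -0.80 and gst-16 at -0.64 just outside.

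Many members lie in tandem arrays, where copies of a gene follow each other along a chromosome. Of the 184 members, 106 were within 20 kb of another member of the same family, in 25 arrays, and 103 had such a neighbour on the same strand. Of the cyp- genes 41 of 74, and of the ugt- genes 41 of 66, are on chromosome V, and 25 of 44 gst- genes are on chromosome II. Genes of an array often differed in their ratios.

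In the array of 9 gst- genes on chromosome II (13608154 to 13630887), gst-24 had a ratio of 3.81 and gst-20 of 1.53. gst-15 and gst-12 each had 0.48, and gst-16 had -0.64. In the array on the same chromosome from 15163817 to 15185389, gst-29 had a ratio of 2.11, while gst-26 and gst-27 had 0.02 and -0.05. The 10 cyp- genes on chromosome V from 3936326 to 3972991 hold cyp-35 and cyp-34A genes. There cyp-35B1 stood at 3.05, and the other 4 genes with a mean of at least 10 lay between 0.52 and 0.71.

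The cyp-13A array on chromosome II (9779181 to 9807569) held both a gene called lower and genes called higher, over a span of 3.60 on the log2 scale. Both ends of that span were low genes, cyp-13A4 (means of 21.6 and 5.48) and cyp-13A8 (5.80 and 22.6). The former passed the minimum through its 20 °C mean and the latter through its 26 °C mean. The cyp-25A array on chromosome III (3832591 to 3852080) was the most even of the arrays with at least 4 genes measured, with all 4 between 0.34 and 0.82. Among the UGTs, ugt-6 at 2.52 stood beside ugt-4 at 0.70 and ugt-5 at 0.47 on chromosome V (12790676 to 12830114), and in the array from 4887165 to 4911399 on that chromosome, all 6 genes measured lay above 0, from ugt-13 at 0.13 to ugt-14 at 1.81.

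**Figure D5:**
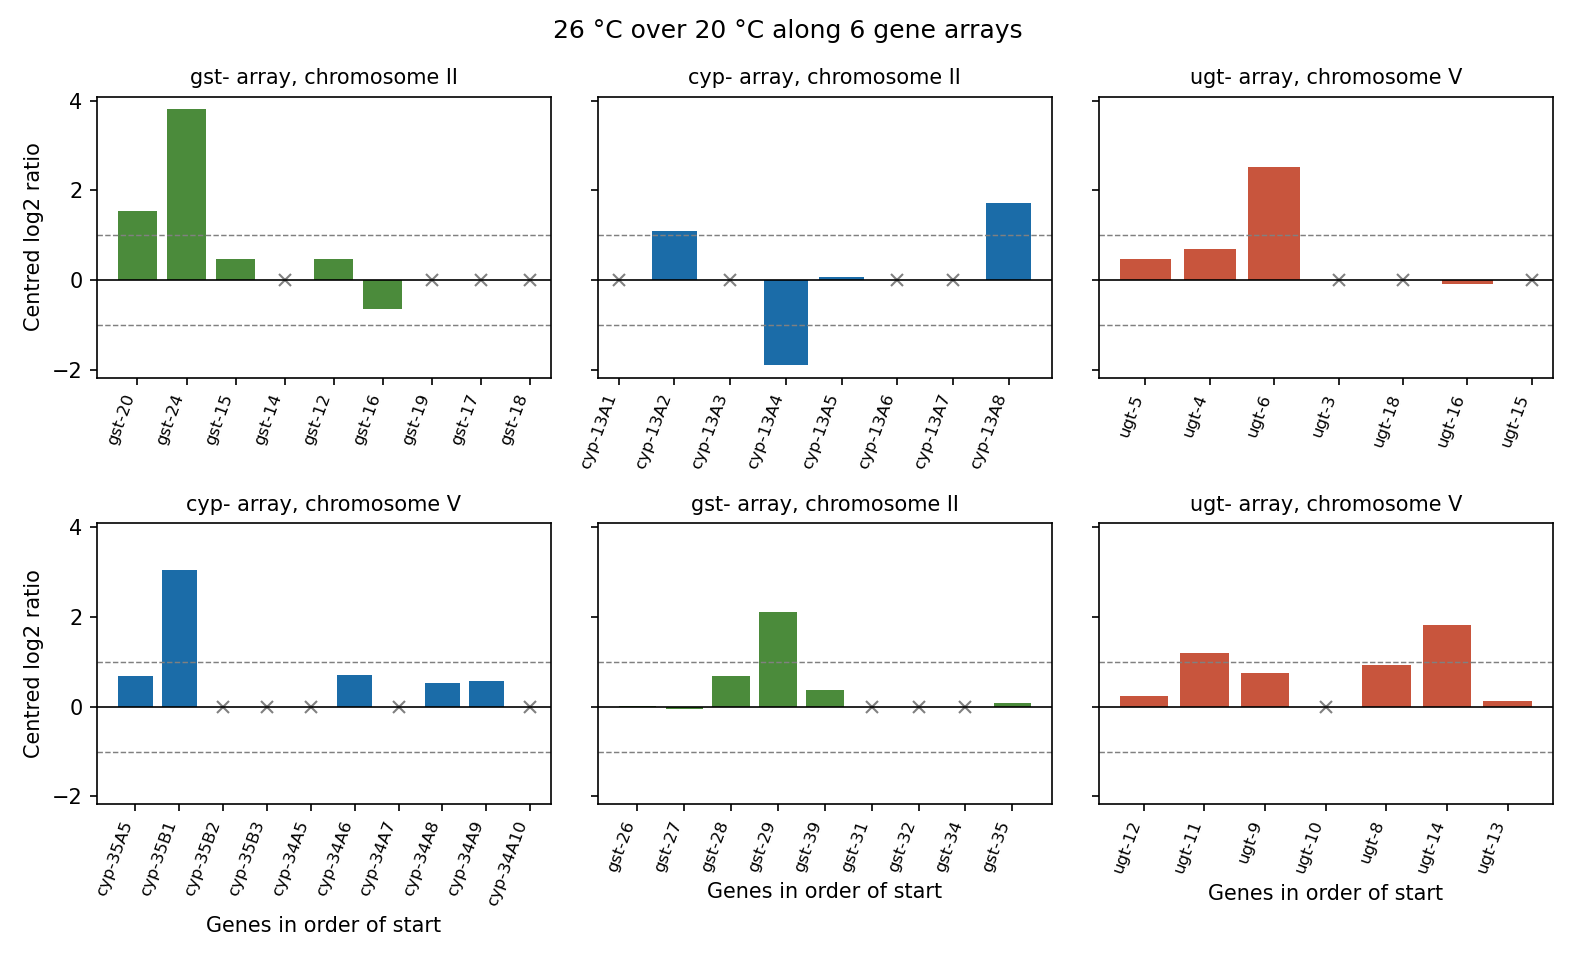
Centred log2 ratio of the 26 °C to the 20 °C mean for the genes of 6 arrays, those with the widest range of ratios among arrays with at least 4 genes measured, in the order of their start positions. Bars are genes with a mean of at least 10, crosses are genes below it, and dashed lines mark 2-fold. gst-24 (3.81) and cyp-35B1 (3.05) stand above the other bars of their arrays. cyp-35B1 passed the minimum through its 26 °C mean, and crosses show no ratio.

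Other genes of the pathway were read from a list of 47: the partners of P450s, flavin monooxygenases, glutathione enzymes, regulators, and the pgp- and mrp- transporter genes. Of the 46 with a mean of at least 10, 6 were higher, or 13%, and 2 lower, or 4.35%, close to the shares of all genes, and their median ratio was 0.06. The P450 reductase gene emb-8, which supplies electrons to P450s, had means of 4963 and 6022 and a ratio of 0.19. gcs-1, which encodes the first enzyme of glutathione synthesis, had 0.29, and the glutathione reductase gene gsr-1 had -0.23.

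The flavin monooxygenase gene fmo-2 had the highest ratio of that list, 1.75 (means of 12.9 and 48.7), and gstk-1, which encodes a GST of the kappa class, had 1.51 (223 and 676). Of the regulators, skn-1 had a ratio of 0.03, its inhibitor wdr-23 0.39, the nuclear receptor genes nhr-8 and nhr-86 0.92 and -0.62, and ahr-1, the aryl hydrocarbon receptor gene, 1.19 (means of 12.9 and 32.6). The efflux pump genes of the pgp- group lay on both sides of the median, with 3 of 14 higher and 2 lower. They ranged from -1.91 for pgp-6 (475 and 133) to 1.65 for pgp-10 (92.4 and 310). None of the 8 mrp- genes was called, and they lay between -0.40 and 0.44.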

How the data were processed

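Whole young adult worms were sequenced after ribosomal RNA depletion, with strand-specific libraries read as pairs. The authors ran a pipeline based on nf-core/rnaseq and DESeq2. Per the labels, the genome build was WBcel235, and the aligner, counter and annotation release are not given in the sources used here. The authors deposited 10 tables of 46926 genes. The column used was the mean normalized count, a signal averaged by the authors over the libraries of a fit. It was identical, gene by gene, within 3 sets of tables, taken from the table names as 20 °C, 26 °C and both temperatures. The other columns hold the authors' own fold changes, standard errors, test statistics, p-values, adjusted p-values and directions, and none was used. Genotypes were therefore not compared and no test was run. There were 0 columns of values per library.

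The mean over both temperatures lay within 10% of the average of the other 2 means, rescaled by factors of 1.05 and 0.981 fitted over 14175 genes, for 84.1% of these genes and for 116 of 134 members. Which libraries entered each mean is not stated, and the 24 libraries are inferred.

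Ratios used a pseudocount of 1, a minimum of 10 for the mean over both temperatures, and centring on the median of all genes, which moved ratios by 0.08. Positions, biotypes and transcript lengths came from Ensembl release 115 for WBcel235, which held all 46926 identifiers. Arrays joined members of a family at most 20 kb apart. Calculations used Python 3.11.15, numpy 2.4.6 and pandas 2.3.3, and the ratio was tested on simulated data. Members and lists were chosen with earlier results of these data known. Named genes were, in each family, the 4 with the highest mean per kb at either temperature, the 3 with the highest and the 3 with the lowest ratio, genes next to the threshold, and 10 genes with known roles. Other genes called, of the cyp-14A, cyp-13A, cyp-33C and cyp-35A subfamilies, of the arrays and of the pathway list, were named after their values were seen. Other scalings, pseudocounts, minimums and a 1.5-fold threshold were tried. A planned search of promoters for a motif was not run, because promoter sequences were not used here.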

Additional observations from a re-analysis of the deposited data

How the results depend on the processing

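No paired analysis was possible because the tables hold means over libraries and no value per library, and for the same reason no library could be left out. Family medians and shares changed direction under none of the alternatives run. Levels per kb were also taken over all annotated exons of a gene in place of the longest transcript, at 20 °C only. The highest gene of each family then had 1437 (cyp-), 1160 (ugt-) and 4429 (gst-). cyp-31A5 had 803.1 in place of 930.0, and gst-36 took its place among the 10 highest members. Without the centring, and with each temperature scaled to its own sum, 0 ugt-, 0 gst- and 2 members in all were lower, and 38 and 41 members were higher. Of all 14175 genes, 1762 (12.4%) were higher and 624 (4.40%) lower without the centring. With the scaling to sums, 2073 (14.6%) were higher and 514 (3.63%) lower. With a pseudocount of 5, 0 gst- genes were lower. With it, 31 members in all were higher and 3 lower, and of all genes 1308 were higher and 609 lower. With a minimum of 50, 6 of 36 cyp- genes and 26 of 102 members (25.5%) were higher, 0 cyp- and 0 gst- genes and 1 member in all were lower, and of 10642 genes 757 (7.11%) were higher and 364 lower. With no minimum, 46 of 181 members (25.4%) were higher and 6 lower, with 2 ugt- and 2 gst- genes among the lower. Of 23030 genes, 3299 (14.3%) were then higher and 2092 lower. At a 1.5-fold threshold, 26 cyp-, 25 ugt- and 15 gst- genes and 66 members in all were higher, 2 ugt- and 2 gst- genes were lower, and 3071 of all genes were higher and 1933 lower. A restriction to genes whose 3 means fitted within 10% was chosen after seeing the data. Under it, 31 of 116 members (26.7%) were higher, and 1 cyp-, 0 gst- and 2 members in all were lower. Of 11922 genes, 1099 (9.22%) were higher and 400 lower. With protein-coding genes only, also chosen after seeing the data, 32 members were higher and 4 lower, and of 13326 genes 1415 (10.6%) were higher and 631 lower. Near the threshold, cyp-13A10 and gst-6 were called higher without the centring (1.05 and 1.03), and gst-38 was not called with scale factors fitted from the third mean (0.99).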
